A study of Mus musculus with 8 samples.

Results

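Stfa3, Stfa2l1 and Csta1 are mouse genes of the stefin family, and each was represented on these arrays by a single probe set, a group of short oligonucleotides read together as 1 signal. They were taken as the probe sets whose platform annotation gives exactly 1 symbol, equal to Stfa3 (probe set 1419709_at), Stfa2l1 (1442339_at) or Csta1 (1435760_at), which made 3 of the 9294 genes analysed. A probe set annotated to both Cstdc5 and Stfa1 (1435761_at) is given beside them. The reference gene table also lists Stfa3 as an older name of Stfa1. The Stfa3 probe set was taken by its platform symbol, and its Entrez identifier was used only to place it on the chromosome. The genes were chosen by their lower signal in the knockout arrays, so their differences between genotypes are given as a description, with no test.

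Stefins are small cytosolic inhibitors of papain-like cysteine proteases, which include most cathepsins. They lie in the active site cleft of the protease and block it reversibly. Cystatin A, the protein of the human counterpart of the mouse genes, is abundant in the upper epidermis and is one of the proteins cross-linked by transglutaminases into the cornified envelope. Mouse stefin A genes are also known for high transcript levels in neutrophils and other myeloid cells.

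The arrays compared cultures labelled as keratinocytes of the C57BL/6 strain, all transduced with the v-rasHa oncogene for 3 days and kept in regular medium. Wild-type cells gave 4 arrays, here called wild-type RAS, and Nfkbiz KO cells gave the other 4, here called knockout RAS. Knockout cells lack the gene of a nuclear IkB protein that modulates NF-kB target genes. The labels call the 4 samples of each genotype biological replicates, and they do not state how the knockout was made or give a culture without the oncogene. Nfkbiz itself was not analysed here.

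Array medians were 4.49 to 4.57 on the log2 scale, and lower quartiles were 3.33 to 3.39. Correlations over probe sets were 0.997 to 0.998 within a genotype and 0.994 to 0.996 between genotypes, and with 4 arrays per group the standard error of the log2 fold change had a median over genes of 0.0693. Krt5, a basal keratin gene that marks the labelled cell type, had a log2 signal of 13.42 ± 0.03 in wild-type and 13.29 ± 0.06 in knockout arrays (SD, n = 4 per group). Krt15, another basal keratin gene, lay near the array medians, with means of 4.63 and 4.74.

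The reference table places 11 stefin genes side by side on chromosome 16, with Csta1 first, Stfa2l1 next to it and Stfa3 last. The 250 bases before the annotated start of the 3 genes are shown because the genes were lower together and because these stretches are related to each other. They are RefSeq sequences of the build GRCm38.p6, at chr16:36455393-36455642 (minus strand) for Stfa3, chr16:36156561-36156810 (plus strand) for Stfa2l1 and chr16:36131190-36131439 (minus strand) for Csta1. Capitals mark ACTCAGCATTTCC, the longest run found in all 3, and TTTAAAACC.
Stfa3: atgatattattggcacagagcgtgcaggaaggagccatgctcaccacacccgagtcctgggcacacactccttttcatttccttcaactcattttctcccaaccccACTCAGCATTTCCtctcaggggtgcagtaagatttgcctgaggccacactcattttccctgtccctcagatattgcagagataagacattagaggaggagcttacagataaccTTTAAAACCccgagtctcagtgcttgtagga
Stfa2l1: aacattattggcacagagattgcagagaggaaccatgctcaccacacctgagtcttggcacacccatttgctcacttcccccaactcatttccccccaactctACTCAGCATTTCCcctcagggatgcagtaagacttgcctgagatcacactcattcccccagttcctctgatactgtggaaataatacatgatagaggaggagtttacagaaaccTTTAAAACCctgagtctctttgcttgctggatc
Csta1: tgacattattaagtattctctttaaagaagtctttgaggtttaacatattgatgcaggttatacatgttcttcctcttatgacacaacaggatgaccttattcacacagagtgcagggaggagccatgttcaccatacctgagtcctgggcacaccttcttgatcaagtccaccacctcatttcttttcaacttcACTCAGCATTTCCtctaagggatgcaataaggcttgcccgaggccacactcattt

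Each stretch was aligned locally with the same window of all 32851 promoter entries in the table. The closest match of Stfa3 was Stfa1, with 208 of 241 aligned bases identical (86.3%), and Cstdc5 followed with 196 of 226 (86.7%). These are the 2 genes that share the fourth probe set. Stfa2l1 was closest to Stfa2, with 227 of 246 bases identical (92.3%), and shared 204 of 241 (84.6%) with Stfa3. Csta1 was closest to Cstdc5, with 154 of 181 bases identical (85.1%), and shared 131 of 158 (82.9%) with Stfa3. For all 3 queries, the 9 best entries were 8 stefin genes of the cluster and Gm7260, a gene that the table also places within the cluster. Those 9 had scores of at least 97 for Stfa3, where the next entry had 27, at least 91 against 27 for Stfa2l1, and at least 58 against 27 for Csta1.

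The run ACTCAGCATTTCC stood in 9 of the 32851 windows, 8 of them entries of stefin genes and the ninth that of Gm7260. Its first base lay 144 bases before the start of Stfa3 and 147 before that of Stfa2l1, but 55 before that of Csta1, so the Csta1 window ends earlier within the related stretch. TTTAAAACC, chosen after the sequences were seen and searched on both strands, began 31 bases before the start of Stfa3 and 33 before that of Stfa2l1. It was in 0.344% of all windows and in those of 8 stefin genes. It was not found in the Csta1 window, which ends before the place that TTTAAAACC takes after the run in the other 2 members. The NF-kB motif (GGG and CC with NNNNN between them), searched on both strands, matched once in Csta1 (GGGAGGAGCC, from 135 bases before the start) and not in the windows of the other 2 members, against 45.8% of all windows. The AP-1 letters TGANTCA matched none of the 3 (6.75% of all windows), and neither did the TATA box letters TATAAA (12.4%). These are letter matches in a short window and show nothing about binding.

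Stfa3 had log2 signals of 10.46, 10.73, 10.76 and 10.57 in wild-type replicates 1 to 4 and of 9.13, 9.62, 9.48 and 9.56 in knockout replicates 1 to 4. The knockout arrays were lower without overlap, and the lowest wild-type value exceeded the highest knockout value by 0.84. The means were 10.63 ± 0.14 and 9.45 ± 0.22 (SD, n = 4 per group), a log2 fold change of -1.18 ± 0.11 (SE), which leaves 44.1% of the wild-type signal. It was the gene with rank 18 among 9294 when genes are ordered from the largest fall.

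Stfa2l1 had log2 signals of 6.07, 6.42, 6.41 and 6.27 in wild-type arrays and of 4.74, 5.46, 5.26 and 5.34 in knockout arrays. Here too every knockout array lay below every wild-type array, with a gap of 0.61, and knockout replicate 1 lay close to the array medians. The means were 6.29 ± 0.16 and 5.20 ± 0.32 (SD, n = 4 per group), a log2 fold change of -1.09 ± 0.14 (SE) at rank 24. No array had a Stfa2l1 signal above its own upper quartile, while the other 2 members were above it in all 8 arrays, so the Stfa2l1 values are those nearest to background.

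Csta1, whose product is the stefin named after human cystatin A, had log2 signals of 9.68, 9.86, 9.93 and 9.75 in wild-type arrays and of 8.32, 9.04, 8.88 and 8.89 in knockout arrays. The groups did not overlap, with a gap of 0.64, and knockout replicate 1 was again the lowest. The means were 9.81 ± 0.11 and 8.78 ± 0.32 (SD, n = 4 per group), a log2 fold change of -1.02 ± 0.13 (SE) at rank 30, which leaves 49.3% of the wild-type signal. Groups with knockout values entirely below wild-type values occurred in 7.97% of the genes tested, and falls of at least 2-fold in 0.366%. Both shares are background for a pattern by which the members were chosen.

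The probe set shared by Cstdc5 and Stfa1, stefin genes between Stfa2l1 and Stfa3 on the chromosome, followed the same order of groups. Its log2 signals were 12.24, 12.47, 12.57 and 12.24 in wild-type arrays and 11.10, 11.79, 11.57 and 11.49 in knockout arrays. The means were 12.38 ± 0.17 and 11.49 ± 0.29 (SD, n = 4 per group), a log2 fold change of -0.89 ± 0.13 (SE). Another shared probe set, of Cstdc4 and Csta2, lay below the lower quartile of every array, at 2.93 ± 0.12 and 2.71 ± 0.12 (SD, n = 4 per group), where signal cannot be told from background. The stefins Csta3, Cstdc3, Cstdc6, Stfa2 and Cstb were not analysed here.

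**Figure D1:**
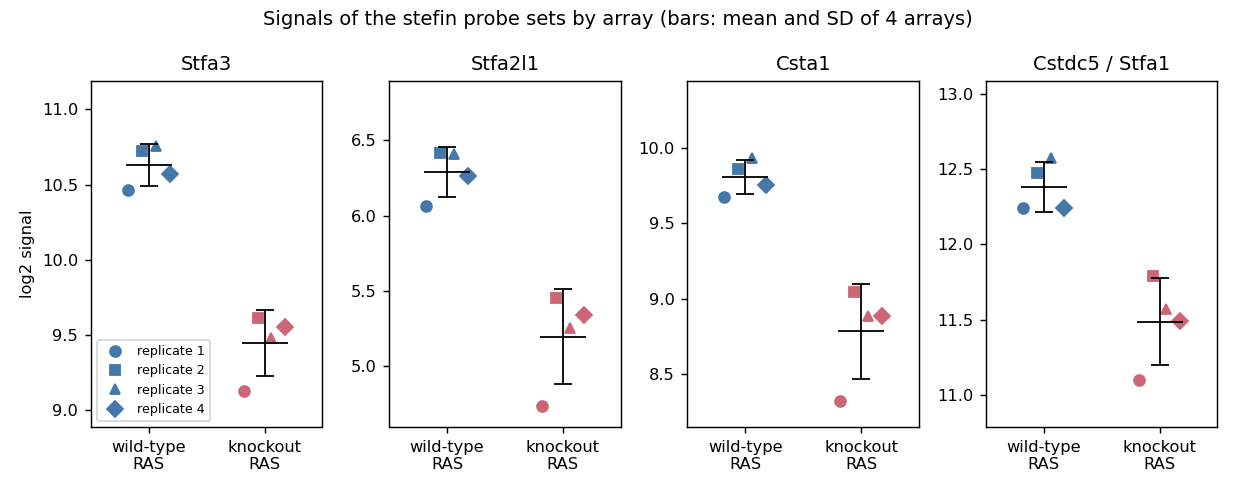
Log2 signal (vertical axes, each spanning the same number of log2 units) of the probe sets of Stfa3, Stfa2l1, Csta1 and the pair Cstdc5 and Stfa1 in 4 wild-type RAS (blue) and 4 knockout RAS (red) arrays, with marker shapes for replicate numbers and black bars for the mean and SD. Knockout arrays lie below wild-type arrays in every panel, and the array numbered 1 is the lowest of its genotype in each panel.

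The log2 fold changes of the members, by which they were chosen, spanned -1.18 to -1.02, and the within-array difference between Stfa2l1 and Csta1 changed by -0.07 from wild-type to knockout arrays, with overlapping ranges. The within-array difference between Stfa3 and Csta1 was 0.82 ± 0.03 in wild-type and 0.66 ± 0.10 in knockout arrays (SD, n = 4 per group), also with overlapping ranges. The difference between Stfa3 and the Cstdc5 and Stfa1 probe set moved from -1.75 ± 0.06 to -2.04 ± 0.11, with no overlap, so the signal of Stfa3 fell by 0.29 more than that of the shared probe set. Against the same probe set, the difference changed by -0.20 for Stfa2l1 and by -0.13 for Csta1, both with overlapping ranges. Probe sequences were not used here, so how far each probe set also binds transcripts of other cluster genes was not tested, and values of single stefins are uncertain to that degree.

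The stefin signals also varied together between cultures of the same genotype, a measure that did not enter the choice of genes. In wild-type arrays the mean of the 3 members deviated from its genotype mean by -0.17, 0.09, 0.13 and -0.04 in replicates 1 to 4, and in knockout arrays by -0.41, 0.23, 0.06 and 0.12. The array numbered 1 was the lowest of its genotype for each of the 3 members and for the shared probe set. Over the 8 deviations, Pearson's r was 0.991 between Stfa3 and Stfa2l1, 0.965 between Stfa3 and Csta1 and 0.977 between Stfa2l1 and Csta1, with Spearman's rho of 0.929, 0.976 and 0.881. The shared probe set had r of 0.930 to 0.954 with the members. Without both arrays numbered 1, r among the members was 0.899 to 0.953 over 6 arrays. The 8 arrays share no stated batch, and these correlations are descriptions without a test. How far the probe sets bind transcripts of each other's genes was not tested, so the correlations are uncertain to that degree too. Without both arrays numbered 1, the log2 fold changes were -1.13 for Stfa3, -1.015 for Stfa2l1, -0.91 for Csta1 and -0.81 for the shared probe set.

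**Figure D2:**
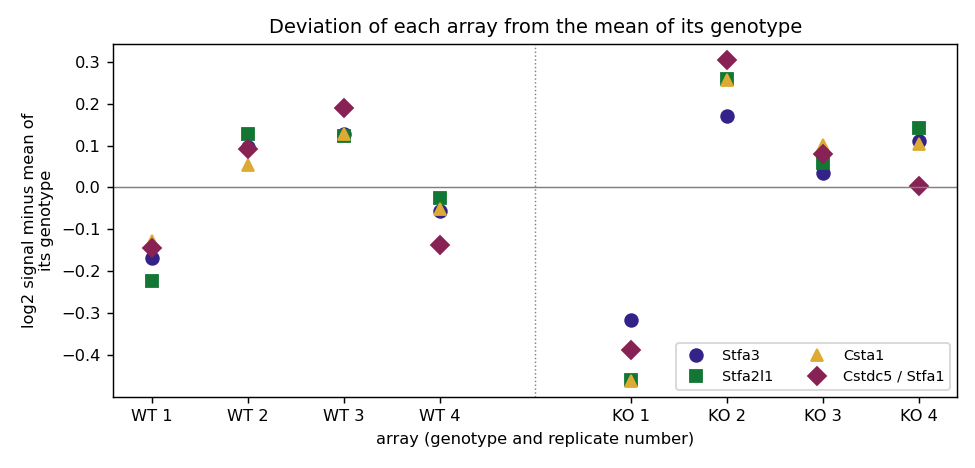
Deviation of the log2 signal (vertical axis) of the 4 stefin probe sets from the mean of their genotype in each array (horizontal axis), with wild-type (WT) arrays on the left and knockout (KO) arrays on the right. The 4 symbols stay close together in each array, from -0.46 to -0.32 in knockout replicate 1 and from 0.17 to 0.30 in knockout replicate 2.

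Genes with the most similar pattern were ranked by r with the mean of the 3 members. Over the 8 log2 values, where the difference between genotypes dominates, these were Gltp (r = 0.998), which encodes a glycolipid transfer protein, Tmigd1 (0.998), which encodes an immunoglobulin-domain membrane protein, Trex2 (0.997), the gene of a DNA exonuclease of keratinocytes, Tmprss4 (0.995), the gene of a membrane-bound serine protease, and Sprr2h (0.995), a small proline-rich gene. Over the 8 deviations from genotype means, they were Gltp (0.991), Tmigd1 (0.987), Krtdap (0.986), which encodes a secreted protein of differentiating keratinocytes, Crct1 (0.984), a gene of the epidermal differentiation complex, and Trex2 (0.982). Without both arrays numbered 1, the last 5 had r of 0.873 to 0.959 over 6 arrays. The choice over the 8 log2 values favours genes with the same difference between genotypes, so the differences of its 5 genes are a description. Tmigd1 had a log2 fold change of -1.20 ± 0.14 (SE), Tmprss4 -0.81 ± 0.09, Trex2 -0.66 ± 0.09, Sprr2h -0.55 ± 0.08, Krtdap -0.45 ± 0.10, Gltp -0.45 ± 0.07 and Crct1 -0.43 ± 0.09.

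The other genes were tested in limma with Benjamini-Hochberg adjustment over all 9294 genes, of which 827 (8.9%) passed an adjusted p of 0.05, 412 lower (4.43%) and 415 higher (4.47%) in the knockout. With arrays centred on their medians, 314 were lower and 482 higher. At an unadjusted p under 0.05, 10.9% of all genes were lower and 9.9% higher. Secreted cystatins, the relatives of stefins that carry a signal peptide and act outside the cell, had no call among 11 measured genes, a list that includes fetuins and Hrg, and 1 of the 11 (9.09%) was higher at an unadjusted p under 0.05. Of the 11, 9 had a mean below the array medians and 4 of these a mean below the lower quartiles, so the count says little of the class, and Cst6 and Cst3 were the 2 above. The median log2 fold change of the 11 was -0.07, against -0.01 over all genes. Cst6, the gene of cystatin M/E, an inhibitor of legumain and cathepsins in the epidermis, had 10.60 ± 0.20 in wild-type and 10.41 ± 0.17 in knockout arrays (SD, n = 4 per group; limma adjusted p = 0.346). Cst3, the gene of the ubiquitous cystatin C, had 10.21 ± 0.09 and 10.34 ± 0.05 (SD, n = 4 each), with an adjusted p of 0.216 in limma, and passed with a variance trend in the fit (adjusted p = 0.0395). Cstdc1 and Cstdc2, cystatin-domain genes on chromosome 2, had log2 fold changes of 0.14 ± 0.09 and -0.06 ± 0.07 (SE), with adjusted p of 0.397 and 0.704.

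Among the proteases that cystatins bind, 10 genes of cysteine cathepsins and legumain were measured. Of these, 1 fell, 1 rose and 8 did not pass, so 20% were called, beside 8.9% of all genes. A mean below the lower quartiles, where signal cannot be told from background, was found for 5 of those 8. Ctsk, the gene of the collagen-degrading cathepsin K, had log2 signals of 6.70, 6.58, 6.73 and 6.71 in wild-type arrays and of 5.84, 5.62, 5.76 and 5.89 in knockout arrays. It fell by 0.90 ± 0.07 (SE; limma adjusted p = 8.25e-06), with no overlap between groups. Ctsw, the gene of the lymphocyte cathepsin W, had means of 6.08 ± 0.19 and 6.55 ± 0.21 (SD, n = 4 each) and rose by 0.47 ± 0.11 (SE), with an adjusted p of 0.0242 in limma. Its call was lost without wild-type replicate 2, 3 or 4 or knockout replicate 1 or 3, with adjusted p of 0.059 to 0.0763. Lgmn, the gene of legumain, an asparaginyl protease, had a log2 fold change of 0.23 ± 0.07 (SE; adjusted p = 0.0541), and passed in 5 of the alternatives, with adjusted p of 0.0106 to 0.0434. Ctsd, an aspartic protease gene outside this class, had 12.71 ± 0.01 and 12.61 ± 0.04 (SD, n = 4 per group; limma adjusted p = 0.301). Ctsb and Ctsl were not analysed here.

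Cornified envelope genes, the partners into which cystatin A is cross-linked, were often lower: 15 of the 33 measured (45.5%, beside 4.43% of all genes) fell and none rose by limma. At an unadjusted p under 0.05, 20 (60.6%) were lower and none higher, beside 10.9% and 9.9% of all genes. The median log2 fold change of the 33 was -0.25. Sprr2f and Sprr2d, small proline-rich envelope precursors, fell by 2.63 ± 0.23 and 2.41 ± 0.10 (SE), and Sprr2i and the late envelope gene Lce3a had log2 fold changes of -1.26 ± 0.12 and -1.21 ± 0.12. Tgm1, the gene of the keratinocyte transglutaminase that cross-links envelope proteins, had log2 signals of 8.57, 8.68, 8.69 and 8.71 in wild-type arrays and of 7.73, 8.00, 8.04 and 7.96 in knockout arrays. It fell by 0.73 ± 0.07 (SE; limma adjusted p = 6.52e-05). Leaving out 1 array at a time, between 10 and 16 of the 33 were lower. Flg, the filaggrin gene, had a log2 fold change of 0.27 ± 0.13 (SE; adjusted p = 0.252), and passed as higher without knockout replicate 1, with 0.40 and an adjusted p of 0.034. Sprr and Lce genes are families of related sequence, so their single values are uncertain. They make up most of this list and most of its called genes, so the counts are not of independent genes. Tgm3 was not analysed here.

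**Figure D3:**
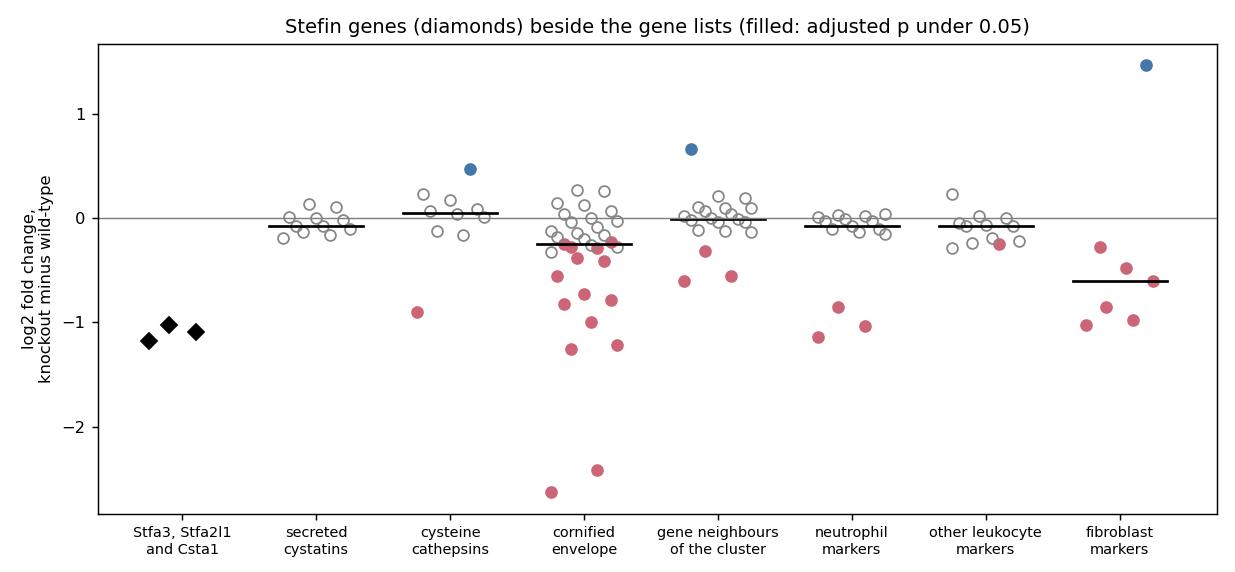
Log2 fold change, knockout minus wild-type (vertical axis), of Stfa3, Stfa2l1 and Csta1 (black diamonds) and of the genes of 7 lists (circles), red where lower and blue where higher at an adjusted p under 0.05 and open otherwise, with bars at list medians. The stefins lie between -1.18 and -1.02, secreted cystatins lie near 0, and 15 of 33 cornified envelope genes are red.

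Cornified envelope genes also shared the variation of the stefins within a genotype. Over the 8 deviations from genotype means, 21 of the 33 (63.6%) had r above 0.8 with the mean of the 3 members, beside 240 of the 9291 genes other than the members (2.58%), and the list median was 0.879 beside -0.02 (0.469 beside -0.05 without both arrays numbered 1). Most of these 21 were Sprr and Lce genes, whose related sequences limit how far they count as separate genes. Among the 21 were genes with no call between genotypes: r was 0.978 for Lce1a2, 0.962 for Sprr1b and 0.929 for Flg, whose log2 fold changes were 0.14, -0.20 and 0.27. Flg had log2 signals of 9.25, 9.37, 9.51 and 9.19 in wild-type arrays and of 9.23, 9.86, 9.55 and 9.77 in knockout arrays, so its groups overlapped while its knockout replicates were ordered as those of Stfa3. Much of this rests on the arrays numbered 1. Without both, 9 of the 33 (27.3%) had r above 0.8 over 6 arrays, beside 5.96% of all genes, and r was 0.924 for Lce1a2, 0.937 for Flg and 0.696 for Sprr1b. Of 8 keratinocyte markers, 3 (37.5%) had r above 0.8 over these 6 arrays and 0 over the 8 deviations, so this share is not particular to envelope genes. Without both arrays numbered 1, r changed sign for Tgm1, from 0.883 to -0.483, and for the keratin gene Krt1, from 0.879 to -0.625. Over the 8 deviations, Cst6 had an r of 0.764 and Cst3 of 0.528.

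**Figure D4:**
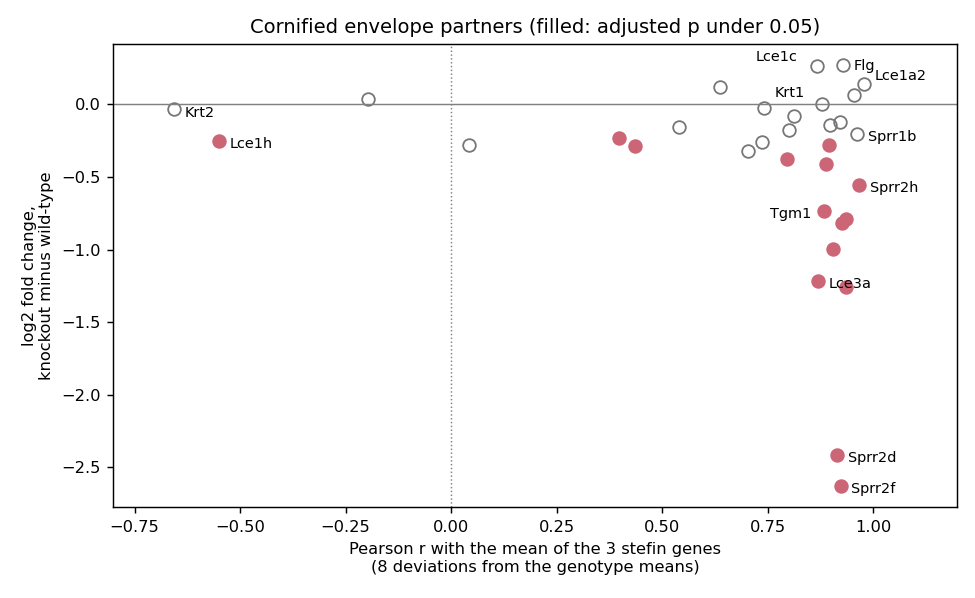
Each circle is 1 of 33 cornified envelope genes, with its Pearson r with the mean of the 3 stefins over the 8 deviations from genotype means (horizontal axis) and its log2 fold change, knockout minus wild-type (vertical axis), filled where the adjusted p was under 0.05. Genes with r above 0.8 range from Sprr2f at -2.63 to Flg at 0.27.

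Neighbouring genes were examined because the stefin cluster and Nfkbiz both lie on chromosome 16. Of the 10 nearest measured genes on either side of the cluster, 3 of the 20 were lower, 1 was higher and 16 did not pass. The called genes made 20% of this list, beside 8.9% of all genes. At an unadjusted p under 0.05, 25% were lower and 5% higher, beside 10.9% and 9.9% of all genes. The median of their log2 fold changes was -0.01, as over all genes. The nearest before Csta1, Fam162a, which encodes a mitochondrial protein inducible by low oxygen, fell by 0.56 ± 0.05 (SE; limma adjusted p = 5.55e-05). Parp9, an interferon-inducible ADP-ribosyltransferase gene on the same side, rose by 0.66 ± 0.06 (limma adjusted p = 2.23e-05). On the side towards Nfkbiz, Ildr1, the gene of a tricellular junction protein and the first measured after Stfa3, fell by 0.32 ± 0.09 (limma adjusted p = 0.0442), and Pla1a, a phospholipase gene, by 0.60 ± 0.07 (limma adjusted p = 0.000219). The call of Ildr1 was lost with arrays centred on their medians (adjusted p = 0.0728), with the replicate block (0.0645) and on leaving out wild-type replicate 1, 3 or 4 or any 1 of the knockout arrays (0.0575 to 0.113).

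**Figure D5:**
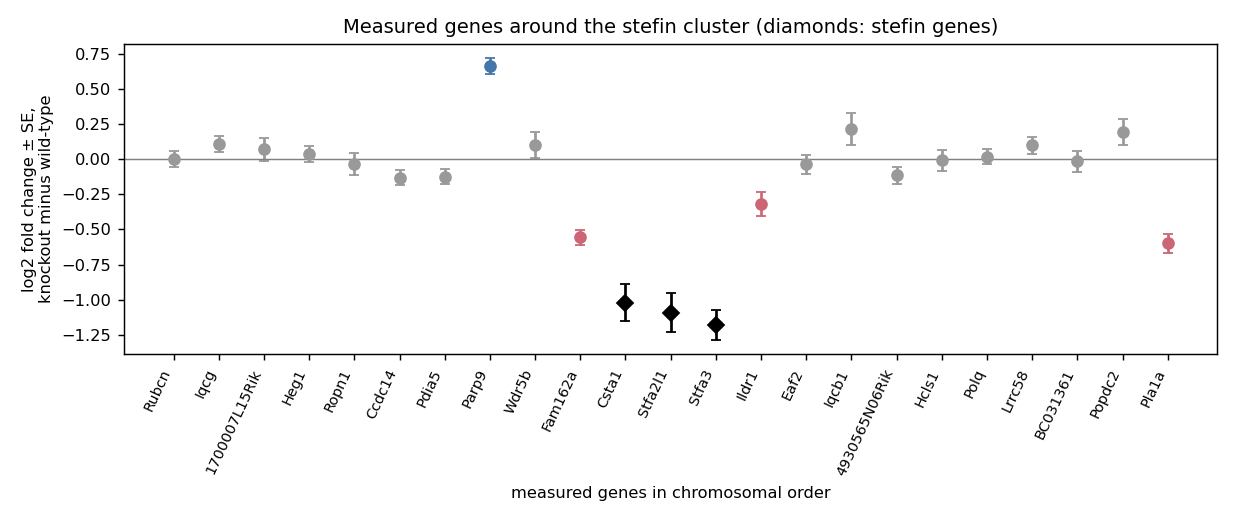
Log2 fold change, knockout minus wild-type, with its SE (vertical axis) of measured genes in chromosomal order (horizontal axis, not to distance) around the stefin cluster, with stefins as black diamonds, called falls in red and the called rise in blue. Of the 20 neighbours, 3 are red and 1 is blue, and the stefins, chosen for their fall, lie from -1.18 to -1.02.

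Markers of other cells were measured because stefins are also myeloid transcripts. Of 15 neutrophil markers, 3 (20%) were lower, beside 4.43% of all genes, and 12 did not pass. Ltf fell by 1.14 ± 0.12, S100a8 by 1.03 ± 0.05 and S100a9 by 0.85 ± 0.07 (SE), genes that epithelial cells also express. The summed linear signal of the 15 was 8163 to 8612 in wild-type and 4196 to 4706 in knockout arrays, most of it from S100a8 and S100a9. Without these 2 genes the sums were 411.2 to 469 and 371 to 411.2. Among the 12 that did not pass, Mpo had log2 signals of 4.49 ± 0.02 and 4.39 ± 0.07, Csf3r 4.16 ± 0.11 and 4.20 ± 0.11, and Itgam 2.91 ± 0.19 and 2.90 ± 0.13 (SD, n = 4 per group), near or below the array medians, with limma adjusted p of 0.298, 0.827 and 0.971. Others lay above the medians: Padi4 had means of 7.25 and 7.26, Camp 5.58 and 5.48, and Ngp 4.90 and 4.87. Of 12 other leukocyte markers, Tyrobp was lower (limma adjusted p = 0.0367, and 0.0551 to 0.0925 in the 10 alternatives that lost the call) and 11 did not pass. Without wild-type replicate 1, 3 or 4, another marker of this list was called lower. At an unadjusted p under 0.05, 5 of the 12 (41.7%) were lower and none higher, beside 10.9% and 9.9% of all genes. The log2 fold changes of the uncalled 4 were -0.29 for Fcgr3, -0.24 for Cd68, -0.22 for Adgre1 and -0.19 for Fcer1g. The list had summed signals of 354 to 403 and of 333.5 to 357. Lyz2 had 5.24 ± 0.02 and 5.26 ± 0.10 (SD, n = 4 per group), and Ly6g and Ptprc were not analysed here. None of 6 Langerhans and dendritic cell markers was called by limma, also at an unadjusted p under 0.05, and Cd207 had 3.45 ± 0.07 and 3.44 ± 0.12.

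Markers of fibroblasts and melanocytes were also measured. Of 7 fibroblast markers, 6 were lower and 1 higher, so 100% were called, beside 8.9% of all genes. Leaving out 1 array at a time, 5 or 6 of the 7 were lower. The summed linear signal of the 7 was 1044 to 1135 in wild-type and 734 to 851 in knockout arrays. Dcn, a matrix proteoglycan gene, fell by 0.97 ± 0.08 (SE), and Ctsk above is also known from fibroblasts. Postn, the 1 marker that was higher, had the largest change of the 7 and rose by 1.47 ± 0.09 (SE; limma adjusted p = 2.12e-06). Within a genotype, r of the fibroblast markers with the stefins ranged from -0.70 to 0.67, with a median of 0.05 (-0.43 without both arrays numbered 1). For the other leukocyte markers, r ranged from -0.645 to 0.773, with a median of 0.416 (0.389 without these arrays). Neutrophil markers ranged from -0.303 to 0.85, the highest being S100a9, with a median of -0.03 (0.305). Over all genes the median was -0.02 (-0.05). Of 3 melanocyte markers, 1 was lower, with sums of 2816 to 2947 and of 2183 to 2689, and Dct had a log2 fold change of -0.18 ± 0.07 (SE; adjusted p = 0.154). All 3 were lower at an unadjusted p under 0.05, beside 10.9% of all genes. Of 8 keratinocyte markers, 2 were lower and 6 did not pass. Krt6b had a log2 fold change of -1.38 ± 0.11 and Col17a1 of -0.31 ± 0.07 (SE; limma adjusted p = 1.65e-05 and 0.0154). With no adjustment of p, 3 of the 8 (37.5%) were lower and 0 higher at 0.05, beside 10.9% and 9.9% of all genes. In such cultures, fewer cells of a type and less RNA per cell cannot be told apart, and the part of these markers in the stefin differences was not tested.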

How the data were processed

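Total RNA of 8 mouse keratinocyte cultures was labelled with biotin, per the labels' protocols, and measured on oligonucleotide arrays. The authors deposited 1 summarised log2 signal per array for each of 11373 probe sets, with the log2 scale read from the values, which lie between 1.57 and 13.9. How probes were summarised and normalized is not given in the sources used here. The platform annotation gave 1 symbol for 9374 probe sets, several for 479 and none for 1520. A gene was represented by its probe set with the highest mean, which left 9294 genes. No filter on low signals and no detection call was used.

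Differences are knockout minus wild-type on the log2 scale, fitted by limma 3.58.1 (lmFit, eBayes; R 4.3.3) with moderated SE, no covariate and a threshold of 0.05 on two-sided adjusted p-values. Whether replicates came from separate animals is not stated, so p-values cover the spread between these samples, which may be technical. The shared probe sets come from a fit over all 11373 probe sets. On simulated data with 200 changed genes of 9294, the fit found 35% of the genes changed 1.2-fold, 92.6% of those changed 1.5-fold and 99.8% of those changed 2-fold, with 4.83% false calls. The simulated noise was independent between genes, whereas stefin and envelope genes varied together between arrays, so these shares may differ in the real data. Promoters were RefSeq entries of GRCm38.p6, present for 10 of 11 stefin genes, searched with Biopython 1.88 (match 1, mismatch -1, gap opening -2, gap extension -1).

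The members and lists were chosen with earlier results of these data known. Named genes are the members, called cystatins, cathepsins and neighbours, up to 4 called envelope genes, the 5 genes most like the members by each measure, preset inhibitors, proteases and markers, and, chosen after their values were seen, Flg, Lce1a2, Sprr1b, Ltf, S100a8, S100a9, Tyrobp, Cstdc1, Cstdc2, Krt6b, Col17a1, Krt1, Krt15, Padi4, Camp, Ngp, Fcgr3, Cd68, Adgre1, Fcer1g and Postn. Deviations of arrays with the same replicate number had correlations of -0.0491 to 0.0855 over genes, and only the arrays numbered 1 were each other's best match. Such low values cannot show whether the numbers pair the samples, and the main fit used no pairing. With a block for the replicate number, the SE was 0.069 in place of 0.106 for Stfa3. It was 0.078 in place of 0.140 for Stfa2l1 and 0.091 in place of 0.132 for Csta1.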

Additional observations from a re-analysis of the deposited data

Results flagged for a closer look

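In 98 groups of 4 arrays (49 genes in both genotypes), 8 values stood apart from the other 3 of their group by Dixon's criterion, where chance gives about 1 in 20 groups. None was a value of Stfa3, Stfa2l1, Csta1 or the probe set of Cstdc5 and Stfa1. The arrays numbered 1, the lowest of their genotype for the stefins, held 4 of the 8. Krtdap and Sprr2h, which gave 2 of these 4, were named for their likeness to the stefins. That choice favours low values in these arrays. Krtdap was 11.73 in knockout replicate 1, with the others at 12.13 to 12.18. Tgm5, a transglutaminase gene, was 6.24 in knockout replicate 1, with the others at 6.52 to 6.56. Sprr2h was 12.43 in wild-type replicate 1, with the others at 12.61 to 12.64, and Fam162a was 10.9 there, with the others at 11.02 to 11.04. In wild-type replicate 2, Twist2 was 8.44 beside 8.53, and Pla1a was 5.92 beside 6.10 to 6.12. Lum was 4.92 in wild-type replicate 3 beside 5.13 to 5.17. Col6a3 was 8.15 in knockout replicate 3 beside 7.93 to 7.94.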

How the results depend on the processing

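The log2 fold changes of the stefins stayed within -1.24 to -1.08 for Stfa3, -1.18 to -0.94 for Stfa2l1, -1.11 to -0.87 for Csta1 and -0.996 to -0.765 for the probe set of Cstdc5 and Stfa1 over the alternatives run for each, among them repeated quantile normalization, median centring, leaving out each array and, chosen after seeing the data, leaving out both arrays numbered 1. With the replicate block, 334 genes were lower and 325 higher in place of 412 and 415, 2 cathepsin list genes were higher in place of 1 and 1 keratinocyte marker was lower in place of 2. The cathepsin list also had 2 higher with median centring, without the lowest 25% of genes, with a variance trend, and without genes of a mean log2 signal under 5 (chosen after seeing the data), and 0 to 1 higher without single arrays. With the variance trend, 1 secreted cystatin and 1 keratinocyte marker were higher and 3 melanocyte markers were lower. Envelope genes higher in the knockout numbered 0 to 1 without single arrays. Other leukocyte markers lower numbered 0 with quantile normalization, median centring or the trend, and 0 to 2 without single arrays. Ranked by Spearman's rho, 2 of the 5 most similar genes by each measure stayed in the top 5, where ties made 25 and 23 genes equal. The cause of these changes was not tested. Signals near the lower quartile (Cstdc4 and Csta2) cannot be told from background, and 4 arrays per group limit the precision.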
